A study of Mus musculus with 18 samples.

Results

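The 10 genes described here mark the cells of small brain vessels and were listed by symbol, with no threshold on their measured values. They are Cldn5, Cdh5, Pecam1, Flt1, Kdr, Tek, Slco1a4 and Abcb1a of endothelial cells, and Pdgfrb and Rgs5 of pericytes. All 10 were listed among the 34620 genes of the count files, and all 10 had enough reads to be among the 17421 genes tested. The tissue was the granule cell layer of the ventral dentate gyrus, microdissected from frozen sections of adult male Swiss Webster mice after perfusion with RNAlater, and RNA-Seq was done on 2 libraries each of WT, F1 and F2 mice. F1 males carried no mutation themselves but had parents that were both heterozygous for the serotonin 1A receptor (5HT1A-/+ in the mothers' labels). F2 males were the offspring of F1 females and WT males, so that their parents were wild type and their maternal grandparents heterozygous. WT males came from a separate wild-type lineage bred in parallel. The animals sequenced were all genetically wild type, so no library holds a targeted gene to check. The sources used here do not say how many animals stand behind a library, and p-values measure the spread between these libraries only.

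Endothelial cells line brain capillaries and form the blood-brain barrier through tight junctions, efflux pumps and carriers. Pericytes sit in the capillary wall, are recruited by platelet-derived growth factor B from the endothelium and act through the receptor encoded by Pdgfrb. Vascular endothelial growth factor acts through the receptors encoded by Kdr and Flt1, and angiopoietins act through the receptor encoded by Tek. In a dissected cell layer, transcripts of this kind are read as coming mainly from the vessels that run between the neurons, which was not tested here. In such bulk samples a change in the number of vessel cells and a change in RNA per cell cannot be told apart.

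The libraries held 26358165 to 33727936 reads assigned to genes. Levels are given as CPM, gene counts scaled to a common library size after TMM scaling, whose factors lay between 0.982 and 1.015. The markers of the labelled cell type were present: Prox1 reached 228 to 345 CPM and Dsp 42.5 to 115 CPM over the 6 libraries. The share of reads that reached outside annotated exons was 12.6% and 14.2% in WT, 9.84% and 9.18% in F1, and 10.2% and 11.6% in F2, so both WT libraries were above the other 4. Comparisons used the exact test of edgeR with Benjamini-Hochberg adjustment over all tested genes, and a gene was called at an adjusted p (q) under 0.01. F1 and F2 were compared with the same 2 WT libraries, so their changes against WT are not independent of each other.

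The promoters of Cldn5, Flt1 and Slco1a4 are shown because these genes stand for the junction, the receptor and the transporter among the endothelial genes and their log2 fold changes in F2 ran from -0.01 to 0.38, none of them past the threshold. Each line gives the 250 bases before the RefSeq start of the gene, 5′ to 3′ on the strand of the gene, taken from the RefSeq promoter table (GRCm38.p6) and placed on mm9 by an exact match. The capitals mark GGAAG or its reverse complement CTTCC, the core bound by many ETS family factors, which are active in endothelial cells.
Cldn5, chr16:18776690-18776939, plus strand: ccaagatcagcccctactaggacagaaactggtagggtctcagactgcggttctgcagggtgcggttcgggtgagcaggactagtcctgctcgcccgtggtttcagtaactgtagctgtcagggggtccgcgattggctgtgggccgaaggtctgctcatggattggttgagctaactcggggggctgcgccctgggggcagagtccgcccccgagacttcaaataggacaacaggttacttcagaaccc
Flt1, chr5:148537588-148537837, minus strand: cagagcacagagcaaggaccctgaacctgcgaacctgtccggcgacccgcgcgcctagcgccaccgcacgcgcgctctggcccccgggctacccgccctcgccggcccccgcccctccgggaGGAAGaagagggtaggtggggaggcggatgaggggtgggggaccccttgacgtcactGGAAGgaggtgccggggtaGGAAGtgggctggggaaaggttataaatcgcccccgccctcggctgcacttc
Slco1a4, chr6:141804742-141804991, minus strand: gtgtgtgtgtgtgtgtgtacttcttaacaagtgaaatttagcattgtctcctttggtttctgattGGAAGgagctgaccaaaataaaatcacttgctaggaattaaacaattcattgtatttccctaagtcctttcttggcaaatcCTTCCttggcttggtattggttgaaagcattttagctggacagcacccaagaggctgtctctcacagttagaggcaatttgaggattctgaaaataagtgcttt
The Flt1 window held 3 matches, the Slco1a4 window 2 and the Cldn5 window 0. Of the 6 members whose RefSeq start lay close to the GENCODE M1 start on mm9, Flt1, Slco1a4 and Kdr had a match and Cldn5, Tek and Rgs5 had none. The same 5 letters occurred on either strand in 64.1% of all 32817 windows of this length in the table. A match is a description of the letters and not evidence of binding.

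Cldn5 encodes claudin 5, the main tight junction protein of brain endothelium, and lies at chr16:18776940-18778353 on mm9. It had the highest level per exon length of the 10 genes, with 16.1 ± 0.122 CPM per kb in WT (SD, n = 2). Rgs5, a regulator of G protein signalling that marks pericytes, followed with 11.9 ± 1.71, and Slco1a4, an organic anion carrier of the barrier, with 7.26 ± 0.949 CPM per kb. These 3 levels did not overlap between the WT libraries. Pdgfrb with 3.12 ± 0.267 and Flt1 with 2.84 ± 0.21 CPM per kb came next and overlapped each other. The length used was that of all annotated exons of a gene, merged. It was 11583 bases for Flt1 and 4314 for Pecam1, whose longest protein-coding transcripts held 6846 and 3392 windows of 50 bases. The places of these genes in the order therefore depend on the length used, and other lengths were not tried. The lowest levels per kb in WT were those of Cdh5 with 1.65 ± 0.266, Abcb1a with 1.47 ± 0.0779, Pecam1 with 1.38 ± 0.098, Tek with 1.12 ± 0.43 and Kdr with 0.827 ± 0.198. Each of these 5 overlapped its neighbour in the order. In F2 the means per kb were 21 for Cldn5, 14.4 for Rgs5 and 7.19 for Slco1a4, and Pecam1 at 2.71 and Abcb1a at 2.6 stood above Cdh5 at 2.29, while Tek and Kdr were again lowest at 1.91 and 1.28. In F1 the means per kb ran from 17.1 for Cldn5 to 1.33 for Kdr. The level of a gene with near copies is a lower estimate, since reads that align to several places were not counted. The 50-base windows along the longest protein-coding transcript of each gene were compared with the protein-coding transcripts of other genes. Of these windows, 17% in Abcb1a were shared with Abcb1b or Abcb4. In Slco1a4 2.73% were shared with other Slco1a genes, Gm5724 or Gm6614, and 0 were shared in the other 8 members. Pseudogenes and the rest of the genome were not searched. None of the 10 overlapped an exon of another gene.

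**Figure D1:**
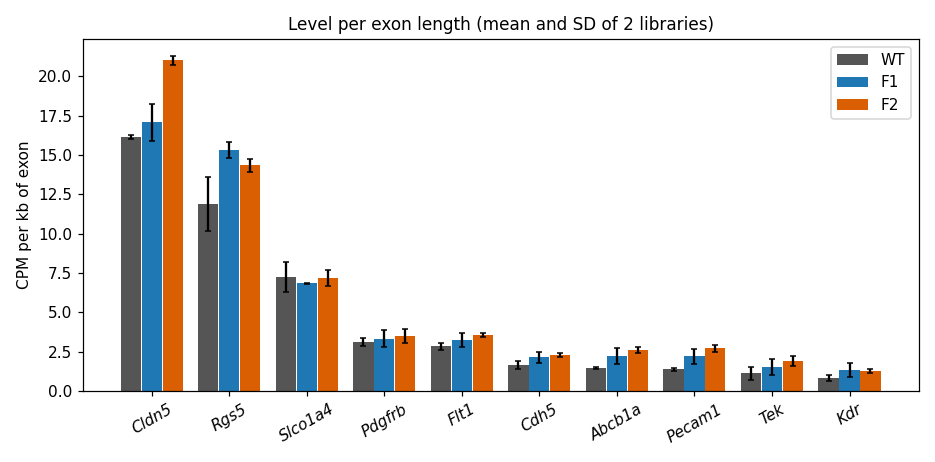
Mean CPM per kb of exon in WT, F1 and F2 for the 10 genes, ordered by the WT level; bars start at 0 and error bars are the SD of 2 libraries. Cldn5 and Rgs5 stand above the rest, and Tek and Kdr are at the low end with 1.12 and 0.827 CPM per kb in WT.

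Both genes that passed the threshold did so in F2. Pecam1, an adhesion molecule of the endothelial cell border, had 6.27 and 5.67 CPM in WT, 7.99 and 10.9 in F1, and 12.4 and 11 in F2. All 4 libraries of F1 and F2 lay above both WT libraries. Both F2 libraries lay above both F1 libraries, but F2 replicate 2 at 10.99 CPM was hardly above F1 replicate 2 at 10.95. Between F2 and F1 Pecam1 was not called (q = 0.806 by edgeR's exact test). The F2 level was 1.96-fold the WT level (95% interval 1.47 to 2.61, log2 fold change 0.97 ± 0.21 SE, q = 0.000137 by edgeR's exact test). In F1 it was 1.58-fold (interval 1.19 to 2.12, q = 0.0139), which missed the threshold. Abcb1a encodes a P-glycoprotein that pumps drugs and lipids out of the endothelium. Its level was 8.38 and 7.78 CPM in WT, 10.2 and 14 in F1, and 14.9 and 13.6 in F2. WT was again lowest without overlap, while F1 and F2 overlapped. The F2 level was 1.76-fold that of WT (interval 1.35 to 2.31, log2 fold change 0.82 ± 0.20 SE, q = 0.000689), and the F1 level was 1.5-fold (interval 1.14 to 1.96, q = 0.0229). Its near copy Abcb1b, looked up after the values were seen, had log2 fold changes of 0.82 in F1 (q = 0.0230) and 0.53 in F2 (q = 0.185).

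The calls of Pecam1 and Abcb1a in F2 did not hold in every fit with a library left out. Such a fit leaves 1 library in WT or in F2, so a lost call does not single out the library that was left out. Without WT replicate 2 the Pecam1 q in F2 rose to 0.0133, and without F2 replicate 1 it rose to 0.0246. For Abcb1a the F2 q was 0.0167 without WT replicate 1, 0.0272 without WT replicate 2, 0.0478 without F2 replicate 1 and 0.0102 without F2 replicate 2. By edgeR's quasi-likelihood test the F2 q was 0.00628 for Pecam1 and 0.0105 for Abcb1a. The log2 fold change in F2 stayed between 0.88 and 1.06 for Pecam1 and between 0.76 and 0.89 for Abcb1a when any 1 library was left out. In F1 it ran from 0.43 to 0.89 for Pecam1 and from 0.34 to 0.81 for Abcb1a, lowest without F1 replicate 2 and highest without F1 replicate 1.

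**Figure D2:**
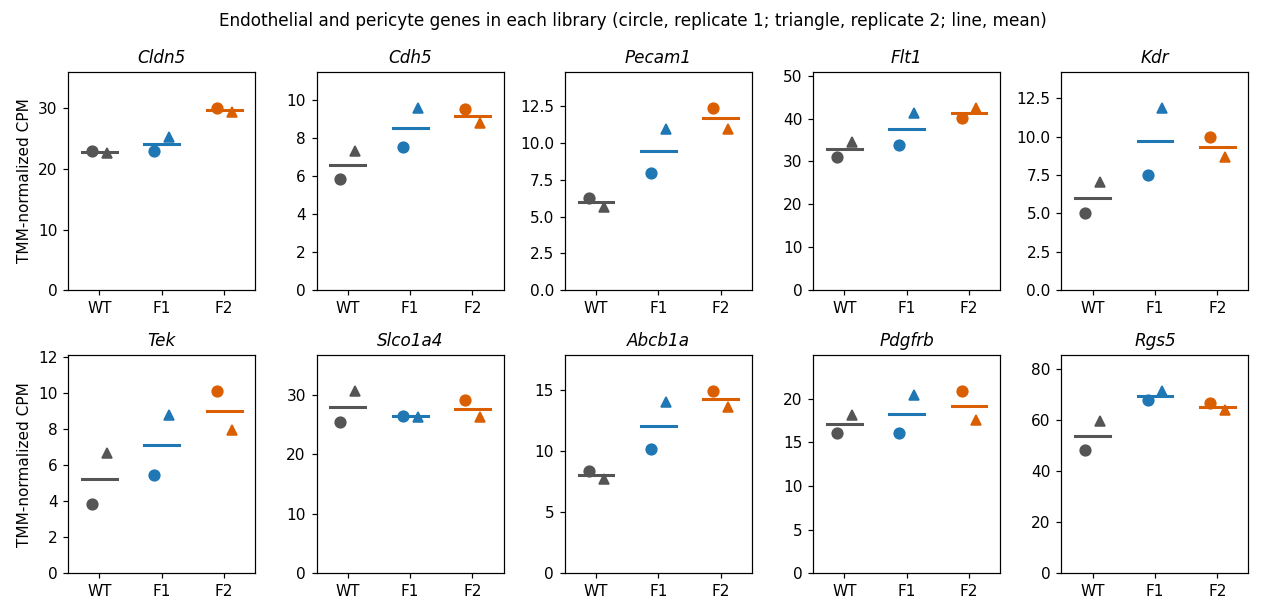
TMM-normalized CPM of the 10 genes in each of the 6 libraries, with a panel per gene, circles for replicate 1, triangles for replicate 2 and lines at group means; every vertical axis starts at 0. Pecam1 and Abcb1a are lowest in both WT libraries, and Slco1a4 lies between 25.4 and 30.6 CPM in all 6.

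None of the receptor genes was called in F1 or F2. Kdr, the main signalling receptor of vascular endothelial growth factor, had 5 and 7.04 CPM in WT, 7.53 and 11.9 in F1, and 9.98 and 8.69 in F2. Both other groups lay above WT, and the 2 F1 libraries were further apart than the 2 F2 libraries. The log2 fold change was 0.69 ± 0.25 in F1 (q = 0.0390) and 0.64 ± 0.26 in F2 (q = 0.0618). Flt1, a receptor that also acts as a decoy, had 31.1 and 34.6 CPM in WT, 33.8 and 41.4 in F1, and 40.2 and 42.4 in F2. Here F1 overlapped WT, and both F2 libraries lay above WT. Its log2 fold change was 0.20 ± 0.14 in F1 (q = 0.348) and 0.33 ± 0.14 in F2 (q = 0.0794). Tek had 3.82 and 6.69 CPM in WT, 5.45 and 8.81 in F1, and 10.1 and 7.94 in F2. F1 overlapped both groups and F2 lay above WT. The log2 fold change of Tek was 0.44 ± 0.30 in F1 (q = 0.313) and 0.78 ± 0.30 in F2 (q = 0.0470), the widest error of the 10 genes. Tek had 130 to 272 reads per library. The values of Tek and Kdr rested on single libraries. In F1 the log2 fold change of Tek was 0.09 without WT replicate 1, 0.065 without F1 replicate 2, 0.76 without F1 replicate 1 and 0.91 without WT replicate 2, and in F2 it was 0.44 without WT replicate 1 and 1.25 without WT replicate 2 (q = 0.00594). The F1 log2 fold change of Kdr was 0.33 without F1 replicate 2 and 0.99 without F1 replicate 1 (q = 0.00103), and its F2 value was 0.41 without WT replicate 1.

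Of the junction genes, Cldn5 had 22.9 and 22.7 CPM in WT, 23 and 25.3 in F1, and 30 and 29.4 in F2. The F2 libraries stood apart from the other 4. Cldn5 was 1.3-fold the WT level in F2 (interval 1.08 to 1.58, q = 0.0340) and 1.06-fold in F1 (interval 0.876 to 1.28, q = 0.745). Between F2 and F1 it was the only member with an unadjusted p under 0.05 (p = 0.0312 and q = 0.474 by edgeR's exact test). Cdh5, the cadherin of endothelial adherens junctions, had 5.82 and 7.32 CPM in WT, 7.49 and 9.55 in F1, and 9.53 and 8.76 in F2. WT was below both groups, which overlapped each other. The log2 fold change was 0.38 ± 0.21 in F1 (q = 0.213) and 0.48 ± 0.21 in F2 (q = 0.0989).

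Slco1a4 did not differ between groups beyond the spread between libraries. It had 25.4 and 30.6 CPM in WT, 26.5 and 26.3 in F1, and 29.1 and 26.3 in F2, so that all F1 and F2 libraries lay within the WT range. The F1 level was 0.944-fold (interval 0.773 to 1.15) and the F2 level 0.991-fold (interval 0.81 to 1.21) that of WT. The F2 interval leaves out the 1.76-fold measured for Abcb1a, the other transporter among the members. The difference between these genes was itself not tested.

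Of the pericyte genes, Pdgfrb had 16.1 and 18.1 CPM in WT, 16.1 and 20.4 in F1, and 20.8 and 17.5 in F2. The 3 groups overlapped. Pdgfrb was 1.07-fold the WT level in F1 (interval 0.843 to 1.36, q = 0.766) and 1.12-fold in F2 (interval 0.884 to 1.42, q = 0.562). Rgs5 had 48.5 and 59.5 CPM in WT, 68.1 and 71.3 in F1, and 66.7 and 63.9 in F2. WT was lowest and F1 highest, with no overlap among the 3 groups. Its log2 fold change was 0.37 ± 0.13 in F1 (q = 0.0261) and 0.27 ± 0.13 in F2 (q = 0.118).

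**Figure D3:**
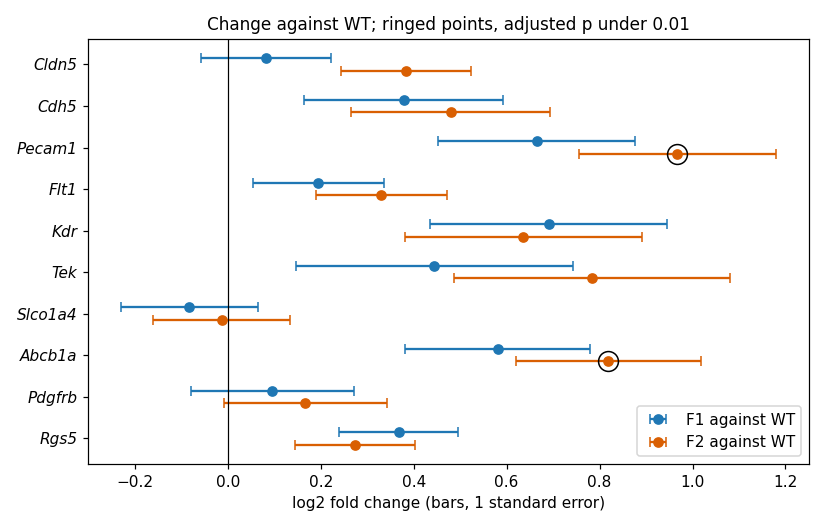
Log2 fold change of each gene in F1 (blue) and F2 (orange) against WT with bars of 1 standard error; ringed points have an adjusted p under 0.01 and the vertical line marks no change. Only Pecam1 at 0.97 and Abcb1a at 0.82 in F2 are ringed, and Slco1a4 is near 0 in both groups.

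In F1, 0 of 10 members were called by edgeR's exact test, where 3.77% of all tested genes were called higher and 8.54% lower. At an unadjusted p under 0.05 there were 4 members in F1, Pecam1, Kdr, Abcb1a and Rgs5, and edgeR's quasi-likelihood test and DESeq2 also gave 4 at that level and 0 called. Of all tested genes 32.6% reached that level in F1. The same 4 members were at q under 0.05, where 8.08% of all tested genes were higher in F1. In F2, 2 of 10 members were called, both higher, where 3.86% of all tested genes were called higher and 8.1% lower. Another pair, Cldn5 and Tek, was at q under 0.05 in F2, where 8.21% of all tested genes were higher, and 8 members had an unadjusted p under 0.05, as had 32.4% of all tested genes. Between F2 and F1, 0 of 10 members were called, where 0.304% of all tested genes were called higher and 0.436% lower, and 1 member had an unadjusted p under 0.05 by the exact test, by the quasi-likelihood test and by DESeq2, as had 8.64% of all tested genes by the exact test. Libraries did not overlap and were higher than WT for 6 members in F1 and 8 in F2, where 29.8% and 31.0% of all tested genes were of that kind, and were lower than WT for 0 members, where 30.6% and 32.0% of all tested genes were. Of F2 against F1, Cldn5 and Pecam1 were higher without overlap (19.4% of all tested genes) and Rgs5 was lower (19.7%). The median log2 fold change of the members was 0.37 in F1 and 0.43 in F2, and that of all tested genes was 0.01 in F1. Slco1a4 was at the low end with -0.08 in F1 and -0.01 in F2, and Kdr in F1 and Pecam1 in F2 were at the high end with 0.69 and 0.97.

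Libraries of a group also differed from each other, in the same direction for most members. In WT 7 of 10 members were higher in replicate 2, in F1 9 of 10, and in F2 only Flt1. The ratio of replicate 2 to replicate 1 lay at 0.905 to 1.75 in WT, 0.991 to 1.62 in F1 and 0.787 to 1.06 in F2. Summed over the 10 genes, the level was 173 and 200 CPM in WT, 206 and 240.0 in F1, and 244 and 230.0 in F2, so that F1 replicate 2 lay above F2 replicate 2. Leaving out F1 replicate 1, the lower F1 library, left 3 members called in F1, which were Pecam1, Kdr and Abcb1a. With WT replicate 2 left out Rgs5 was called in F1 and only Tek in F2, and with F2 replicate 1 left out 0 members were called in F2.

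Of 24 other endothelial genes tested, 1 was called higher in F1, Ly6c1 (log2 fold change 0.69 ± 0.17, q = 0.000973), where 3.77% of all tested genes were higher. In F2, 3 of the 24 rose, where 3.86% of all tested genes did, and 1 fell, where 8.1% did. Ptprb, a phosphatase that restrains the Tek receptor, had 12.4 and 15.7 CPM in WT, 15.6 and 26.1 in F1, and 28.6 and 27 in F2 (log2 fold change 0.98 ± 0.22 in F2, q = 0.000166). Vwf, the von Willebrand factor of larger vessels and veins, changed by 0.86 ± 0.23 in F2 (q = 0.00259), and Itm2a by 0.81 ± 0.24 (q = 0.00808). Itm2a had 19.6 and 20 CPM in WT, 24 and 34.6 in F1, and 45.1 and 24.5 in F2, so that F2 replicate 2 lay within the F1 range. Plvap, which forms the diaphragms of leaky vessels and is scarce where the barrier is tight, had 24.9 and 26.8 CPM in WT, 27 and 22.4 in F1, and 16.6 and 18.5 in F2. Both F2 libraries were below the other 4, and the log2 fold change in F2 was -0.56 ± 0.16 (q = 0.00373). Esam and Tie1, the first genes of the list, had log2 fold changes of 0.25 (q = 0.385) and 0.42 (q = 0.241) in F2. The median log2 fold change of the list was 0.20 in F1 and 0.30 in F2.

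Among 18 junction and transport genes of the barrier, 0 were called in F1, where 3.77% of all tested genes were called higher and 8.54% lower. In F2, 2 were called higher, where 3.86% of all tested genes were. Slc2a1, the glucose transporter of the barrier, had 50.5 and 41.5 CPM in WT, 59.4 and 62.8 in F1, and 65.2 and 64.4 in F2 (log2 fold change 0.49 ± 0.13 in F2, q = 0.00173). Jam2, a junctional adhesion molecule, changed by 0.56 ± 0.16 in F2 (q = 0.00391). The tight junction genes Ocln and Tjp1 had F2 log2 fold changes of 0.09 (q = 0.775) and 0.09 (q = 0.671). Of 18 other pericyte and smooth muscle genes, 0 were called in F1 and 1 was called higher in F2, against the same shares. This was Vtn, vitronectin, with 46 and 47.2 CPM in WT, 51.3 and 87.5 in F1, and 81.1 and 66.8 in F2 (log2 fold change 0.67 ± 0.20 in F2, q = 0.00713). Anpep with 1.12 to 2.4 CPM and Kcnj8 with 1.21 to 2.4 CPM, both pericyte markers, were near the low end of the tested range and not called.

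The ligands that act on the member receptors were mostly not called. Of 11 ligands and receptor partners, Pdgfb alone was called higher in F1 (log2 fold change 0.56 ± 0.16, q = 0.00474), where 3.77% of all tested genes were. In F2, 0 of them were called, and Pdgfb was at 0.27 ± 0.16 (q = 0.251). Pdgfb, the ligand of Pdgfrb, had 16.9 and 13.6 CPM in WT, 22.4 and 22.6 in F1, and 17.9 and 18.8 in F2. Vegfa had 39.2 and 33.3 CPM in WT and 28.4 to 33.2 CPM in the other 4 libraries (q = 0.0968 in F1 and 0.266 in F2), and Vegfb had q = 0.659 in F1 and 0.894 in F2. Wnt signals from neural cells maintain the barrier. Of 12 genes of that pathway 2 were lower in F1, where 8.54% of all tested genes were, and 0 were called in F2. They were Axin2, a target and brake of the pathway (log2 fold change -0.69 ± 0.17 in F1, q = 0.000604), and Gpr124, a coreceptor for Wnt7 (-0.54 ± 0.16, q = 0.00903). In F2 Axin2 was at -0.41 (q = 0.0619) and Gpr124 at -0.42 (q = 0.0506). The ligand genes Wnt7a and Wnt7b had log2 fold changes of 0.43 (q = 0.0670) and 0.36 (q = 0.0427) in F1 and were not called.

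Summed levels of other cell types also differed between libraries. The summed level of 8 astrocyte genes was 2507 and 2728 CPM in WT, 3043 and 3710.1 in F1, and 4157 and 3465 in F2, and that of 8 microglia genes was 128 and 126 in WT, 151 and 174 in F1, and 195 and 167 in F2. The 6 libraries had the same order in the astrocyte sum as in the member sum, and the order of the microglia sum differed only between the 2 WT libraries. Slc1a2, at 1164 to 1988 CPM the largest part of the astrocyte sum, had this order, as had Slc1a3. The other astrocyte genes had other orders, and Aldh1l1, Aldoc and Slc4a4 were higher in WT replicate 1 than in WT replicate 2. For the counts that follow, 3.77% of all tested genes were called higher and 8.54% lower in F1, and 3.86% higher and 8.1% lower in F2. Of the astrocyte genes 1 was higher in F1, Aldh1l1, and 5 in F2, which were Gfap (log2 fold change 0.75, q = 0.00311), Aldh1l1, Slc1a2, Gja1 and Aldoc. Aqp4 was not called (0.51 in F2, q = 0.0614). Of the microglia genes 0 were called in F1 and 5 in F2, including C1qb at 0.73 (q = 0.000989) and Cx3cr1 at 0.49 (q = 0.00973). For 8 oligodendrocyte genes the sum was 1101 and 2007 in WT, 2994 and 2249 in F1, and 1545 and 2910.1 in F2, with Mag, Cnp and Mal called higher in F1 and Cnp in F2, and this order of libraries was not that of the members. Of 5 oligodendrocyte precursor genes 3 were higher in F1 (Pdgfra, Olig1 and Gpr17) and 2 in F2 (Pdgfra and Olig1). Of 8 granule neuron genes 0 were called in either group, and their sum was 4180.2 and 4356 in WT and 3683 to 4560 in the other libraries. Most of this sum was Snap25, with 3262 and 3412 CPM in WT and a log2 fold change of -0.30 in F2. The sum therefore says little about the others, among which Prox1 was at 0.32 and Calb1 at 0.26 in F2. In F2 the log2 fold change was positive for 6 of the 8. Of 8 interneuron and CA field genes 1 was higher in F1 (Slc32a1) and 3 in F2 (Gad2, Slc32a1 and Nov).

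Fibroblasts of the vessel wall and meninges and red blood cells could also have been taken along. The sum of 9 fibroblast genes was 139 and 174 CPM in WT, 119 and 179 in F1, and 216 and 181 in F2. Pdgfra was higher in F1 and in F2, and is also a marker of oligodendrocyte precursors. Lum was lower in F1 (log2 fold change -0.62, q = 0.00359), and Col1a1 and Col1a2 were not called. The sum of 6 red blood cell genes was 3.32 and 4.15 CPM in WT, 12.2 and 4.92 in F1, and 7.1 and 3.34 in F2. Of the 4 that could be tested Hbb-b1 was called higher in F1, and Hba-a2 was at 0 to 0.198 CPM. In each group 3 of the 4 had a positive log2 fold change. Alas2 went the other way, with -1.08 in F1 and -1.15 in F2, and was not called. The sum of 7 choroid plexus genes was 15.4 to 21 CPM, nearly all of it Kl, while Ttr, the dominant choroid transcript, was at 0.187 to 1.1 CPM. No gene of these lists was at 0 in all 6 libraries. The part that other cell types, or the share of reads outside exons, have in the values of the members was not tested.

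**Figure D4:**
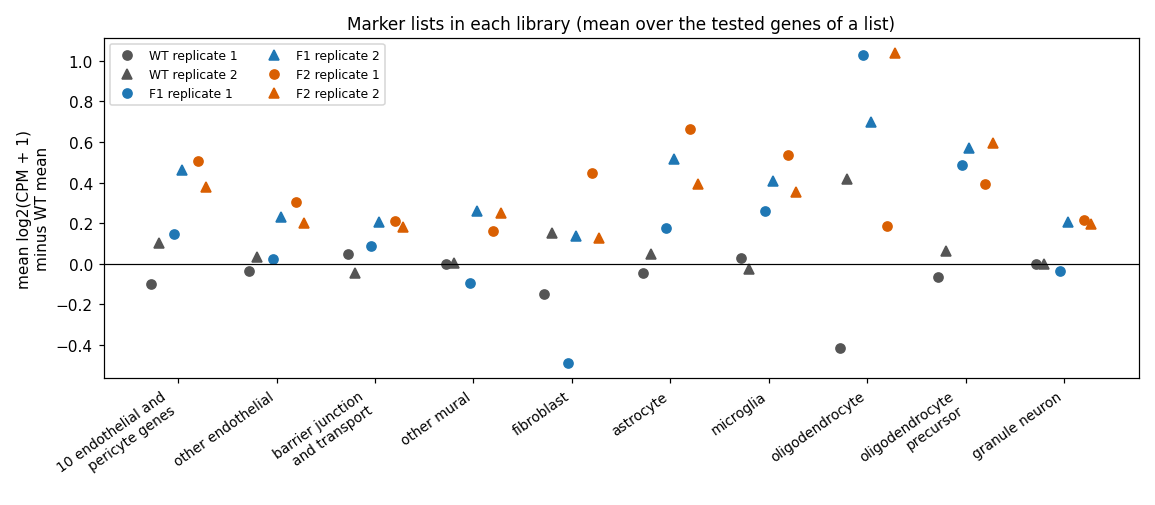
Mean over the tested genes of each list of log2(CPM + 1) minus the WT mean, by library, with circles for replicate 1 and triangles for replicate 2 in WT (grey), F1 (blue) and F2 (orange). The 10 vessel genes and the barrier, astrocyte and microglia genes are above both WT libraries in all 4 F1 and F2 libraries. These lists are highest in F2 replicate 1, where the member mean is 0.507. The oligodendrocyte precursor genes are also above both WT libraries in all 4, and are highest in F2 replicate 2. The other 2 vessel lists are not: in F1 replicate 1 the other endothelial genes, at 0.023, are below WT replicate 2 at 0.035. In that library the other mural genes, at -0.097, are below both WT libraries.

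The members resembled each other to different degrees. Over the 6 libraries the Pearson correlation of the log2 CPM of a member with the mean of the other 9 was 0.988 for Cdh5, 0.937 for Tek, 0.935 for Flt1, 0.933 for Kdr, 0.907 for Abcb1a and 0.888 for Pecam1. It was 0.806 for Pdgfrb, 0.788 for Rgs5 and 0.784 for Cldn5, and 0.134 for Slco1a4. These values are descriptions over 6 libraries that share the group differences. Among 11600 other tested genes with a mean of at least 5 CPM, the closest to the mean profile of the members were Fzd2 (r = 0.997), Plekhf2, Add3, 4933431E20Rik, Itgb1, Mfsd1, Mki67ip, Mrps18b, Arhgap5 and Sox21 (r = 0.990). An r above 0.8 was reached by 15.4% of those genes, so that a likeness of this size was common. Of the 10, Arhgap5 (log2 fold change 0.75, q = 4.98e-05) and Itgb1 (0.48, q = 0.00720) were called in F2, and 0 were called in F1.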

How the data were processed

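RNA-Seq was analysed in 6 libraries, 2 each of WT, F1 and F2, and 12 bisulfite samples of the series were not analysed here. The authors sequenced single-end reads of 50 bases, used TopHat with known junctions only to align them to mm9, and counted them on genes with HTSeq (intersection-strict). The submitters' processing notes name TopHat2 2.0.2. The values deposited by the authors are raw counts per gene symbol. Reads aligned to several places (25.1% to 33.2% of the reads in the count files), in exons of more than 1 gene or reaching outside exons (9.18% to 14.2%) are outside these counts and were left out of library sizes and tests.

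Groups were taken from the labels. Counts were filtered with filterByExpr, scaled by TMM and compared by the exact test of edgeR 4.0.16 under R 4.3.3, where dispersion was common first, then tagwise, over the 3 groups. P-values were adjusted over all tested genes by the Benjamini-Hochberg method, and the threshold was q under 0.01. The sources used here name edgeR with tagwise dispersion and not the function. The common dispersion of 0.0113 equals a variation of 10.6% among libraries of the same group, and precision is limited by the number of libraries more than by depth. Standard errors follow from counts and dispersion by the delta method, and 95% intervals are 1.96 standard errors wide on each side. The procedure was tested on simulated data before use. Alternatives were edgeR's quasi-likelihood test without a replicate block and with it, its likelihood-ratio test with the block, DESeq2 1.42.0, other scalings, filters and dispersion, q under 0.05, and each library left out. A block with the F2 numbers crossed was added after seeing the data.

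The replicate numbers gave no sign of a pairing: deviations of same-numbered libraries correlated at -0.0269 (WT and F1), -0.083 (WT and F2) and -0.182 (F1 and F2). Such correlations cannot show whether libraries were prepared together, under these numbers or others. Replicates were not duplicates, with a chi-square per degree of freedom of 24.9, 19.2 and 22.9. The members, the other lists and the tests were chosen with earlier results of these data known. Named were all members, the first 2 genes of each other list and up to 4 of its genes called in F1 or F2, and the 10 genes most like the mean member profile by Pearson correlation; a further gene is marked where it is named, and for cell types outside the vessel wall some genes the rule covers are given only within the counts of their list. Pdgfra, Cspg4 and Nrp2 stand in 2 lists each. Positions, exon lengths and overlaps come from GENCODE M1 on mm9, promoter bases from RefSeq. Python 3.11.15 with pandas 2.3.3 and matplotlib 3.10.9 made the tables and the plots.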

Additional observations from a re-analysis of the deposited data

How the results depend on the processing

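The number of members called was 0 in F1 and 2 in F2. It was 4 in F1 and 4 in F2 at q under 0.05. With the block on crossed F2 numbers, chosen after seeing the data, it was 3 in F1 and 4 in F2. In F2 it was 1 with the quasi-likelihood test, both without and with the replicate block. Leaving out 1 library at a time gave 0 to 3 in F1 and 0 to 2 in F2. With the replicate block in a likelihood-ratio test it was 0 in F1 and 2 in F2. Between F2 and F1 it was 0 under every alternative run. Over all tested genes, 2144 were called in F1, 2084 in F2 and 129 between F2 and F1. At q under 0.05 these counts were 3623, 3606 and 230, with the quasi-likelihood test 1029, 997 and 2, and with that test and the replicate block 848, 758 and 9. Likelihood-ratio tests with the replicate block gave 1743, 1758 and 117, and with crossed F2 numbers 2679, 2752 and 233. Without 1 library the lowest counts were 988 in F1 and 703 in F2, and between F2 and F1 they ran from 52 to 223. Changes near 0 reversed sign. In F2, Slco1a4 was at 0.00346 with DESeq2 and 0.00937 without the low-count filter. With 1 library left out, the F1 log2 fold change ran from -0.21 to 0.066 for Slco1a4 and from -0.079 to 0.27 for Pdgfrb, and that of Slco1a4 in F2 from -0.14 to 0.13. Between F2 and F1 the same range was -0.065 to 0.29 for Cdh5, -0.00511 to 0.29 for Flt1, -0.35 to 0.31 for Kdr, -0.00196 to 0.14 for Slco1a4 and -0.094 to 0.26 for Pdgfrb. The cause was not tested. Fewer libraries also leave less information in each of the left-out fits. The other values of single members kept their direction. At q under 0.05 only the threshold moved. This took in Pecam1, Kdr, Abcb1a and Rgs5 in F1, and Cldn5 and Tek in F2. The crossed block, at q under 0.01, added Pecam1, Kdr and Rgs5 in F1, and Kdr and Tek in F2. With all libraries kept, only Abcb1a in F2 was no longer past the threshold, by the quasi-likelihood test without and with the replicate block. A limit is the number of libraries, 2 per group, so that the spread of a gene is largely borrowed from other genes.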
